A study of Mus musculus with 8 samples.

Results

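Regions of muscle chromatin that carried a phospho-CREB1 peak in 1 control library and in no other library are described here. Peaks of 4 lists were merged wherever they shared at least 1 bp, which gave 17607 regions. A region was kept when it held a peak of exactly 1 CTRL list and none of either C26 list. The rule kept 6626 regions (37.6% of 17607), of which 1475 (8.38%) had their peak in CTRL replicate 1 and 5151 (29.3%) in CTRL replicate 2. Each of the 6626 regions consisted of 1 peak, so the region and the peak are the same object and have values from 1 library. The members were chosen by the presence or absence of a called peak, so peak numbers, fold enrichments and q-values of these regions are a description and carry no test.

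The study profiled phosphorylated CREB1 by chromatin immunoprecipitation and sequencing (ChIP-seq) in muscle of male Balb/c mice. The C26 group carried tumors of the C26 adenocarcinoma line, grown from cells injected under the skin of the right flank at 2 months of age, and the CTRL group consisted of control mice. No engineered allele is named for either group. Each group had 2 phospho-CREB1 libraries with an input library for each, and the 4 inputs served the authors' peak calls only. The labels name rolipram, a phosphodiesterase 4 inhibitor, or vehicle as treatments of C26 mice without saying whether the mice profiled here received either, and do not say what control mice received in place of tumor cells. Gastrocnemius stands in the sample labels and quadriceps in the protocol of extraction, and that protocol lists a CREB or a phospho-CREB1 antibody. The 2 libraries of a group carry numbers, and nothing in the labels says that they came from different mice or from pools. Whole muscle holds fibers, vessels, connective tissue, nerves and blood cells, and fewer cells of a type cannot be told apart from less binding per cell.

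CREB1 is a leucine-zipper transcription factor that binds the palindromic cAMP response element (CRE) as a dimer. A rise in cAMP activates protein kinase A, which phosphorylates CREB1, and the phosphorylated protein recruits the coactivators CBP and p300. In skeletal muscle this pathway responds to adrenergic signals and exercise and is known for regulating Sik1, the PGC-1α gene Ppargc1a and genes of metabolism and fiber growth.

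The promoters below show what the strongest of these gene-end regions and those with a CRE lay over. Each line gives 300 bases, from 250 before to 50 after the first base of a RefSeq transcript, in the direction of transcription (RefSeq, GRCm38.p6, the build of the peaks). Capitals mark the CRE, TGACGTCA, in the 6 promoters that hold 1 under the peak. The first of them belonged to a region of CTRL replicate 1 only, at Nfkbid, which encodes an atypical inhibitor of NF-κB (chr7:30422156-30422455, plus strand), and its CRE began 51 bases before the start site.

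Nfkbid: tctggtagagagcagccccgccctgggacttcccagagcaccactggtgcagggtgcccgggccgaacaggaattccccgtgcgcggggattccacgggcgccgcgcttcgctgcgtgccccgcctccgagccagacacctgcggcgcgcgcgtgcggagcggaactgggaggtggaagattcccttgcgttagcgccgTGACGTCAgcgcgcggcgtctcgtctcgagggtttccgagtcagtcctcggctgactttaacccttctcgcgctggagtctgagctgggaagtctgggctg

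The other 5 belonged to regions of CTRL replicate 2 only. They are Flt1, the VEGF receptor 1 gene (chr5:147725962-147726261, minus strand), Syn1, the synapsin I gene (chrX:20920869-20921168, minus strand), Hs3st3a1, a heparan sulfate sulfotransferase gene (chr11:64435082-64435381, plus strand), Daam2, a formin gene of Wnt signaling (chr17:49564288-49564587, minus strand), and Epha2, an ephrin receptor gene (chr4:141300971-141301270, plus strand). In 4 of these 5 the CRE lay within 35 bp of the summit, and in Flt1 it lay 97 bp away.

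Flt1: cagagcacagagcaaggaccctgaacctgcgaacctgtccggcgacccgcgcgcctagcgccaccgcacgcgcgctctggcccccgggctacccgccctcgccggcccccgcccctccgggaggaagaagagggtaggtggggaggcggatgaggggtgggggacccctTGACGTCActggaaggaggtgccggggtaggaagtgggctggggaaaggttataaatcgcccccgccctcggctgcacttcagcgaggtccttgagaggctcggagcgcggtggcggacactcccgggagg

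Syn1: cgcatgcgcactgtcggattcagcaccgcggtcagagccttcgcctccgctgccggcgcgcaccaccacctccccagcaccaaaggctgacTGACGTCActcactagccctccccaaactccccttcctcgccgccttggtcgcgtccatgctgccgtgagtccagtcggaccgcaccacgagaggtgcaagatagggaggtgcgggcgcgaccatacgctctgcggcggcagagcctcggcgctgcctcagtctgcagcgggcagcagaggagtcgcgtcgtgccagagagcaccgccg

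Hs3st3a1: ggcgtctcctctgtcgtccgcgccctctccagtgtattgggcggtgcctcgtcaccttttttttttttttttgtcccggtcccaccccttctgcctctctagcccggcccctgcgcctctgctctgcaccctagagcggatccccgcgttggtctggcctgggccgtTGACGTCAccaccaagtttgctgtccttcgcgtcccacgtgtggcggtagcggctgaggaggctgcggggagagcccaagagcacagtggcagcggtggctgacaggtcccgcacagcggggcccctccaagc

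Daam2: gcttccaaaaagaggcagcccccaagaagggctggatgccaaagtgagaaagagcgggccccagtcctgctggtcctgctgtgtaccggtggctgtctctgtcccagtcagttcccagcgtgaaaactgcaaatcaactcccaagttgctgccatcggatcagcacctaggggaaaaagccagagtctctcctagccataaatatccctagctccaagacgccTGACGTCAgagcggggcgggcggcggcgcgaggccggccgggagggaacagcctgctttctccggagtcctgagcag

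Epha2: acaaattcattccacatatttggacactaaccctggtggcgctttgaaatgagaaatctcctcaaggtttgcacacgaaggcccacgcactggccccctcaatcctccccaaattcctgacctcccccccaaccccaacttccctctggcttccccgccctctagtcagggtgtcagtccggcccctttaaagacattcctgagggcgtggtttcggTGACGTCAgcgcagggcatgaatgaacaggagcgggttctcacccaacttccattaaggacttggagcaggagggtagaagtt

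Of the gene-end regions with a summit inside a promoter window, the 2 strongest of each library had no CRE in that window. They are Vps36 (chr8:22192583-22192882, plus strand) and Hdac8 (chrX:102505109-102505408, minus strand) for CTRL replicate 1, and Capza2 (chr6:17636760-17637059, plus strand) and Zdhhc21 (chr4:82859624-82859923, minus strand) for CTRL replicate 2. Capitals here mark the GC box GGGCGG in Capza2 and Zdhhc21 and the CCAAT box on either strand in Zdhhc21 and Hdac8, where 2 CCAAT boxes on opposite strands overlap. None of the 4 windows held the shorter core TGACG on either strand, and the Vps36 window held neither box.

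Vps36: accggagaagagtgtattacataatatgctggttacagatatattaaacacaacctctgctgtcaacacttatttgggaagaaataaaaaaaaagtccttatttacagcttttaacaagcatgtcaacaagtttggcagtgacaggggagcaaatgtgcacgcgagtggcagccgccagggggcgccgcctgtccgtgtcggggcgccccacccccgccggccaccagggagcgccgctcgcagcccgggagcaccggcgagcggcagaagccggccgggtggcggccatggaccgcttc

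Hdac8: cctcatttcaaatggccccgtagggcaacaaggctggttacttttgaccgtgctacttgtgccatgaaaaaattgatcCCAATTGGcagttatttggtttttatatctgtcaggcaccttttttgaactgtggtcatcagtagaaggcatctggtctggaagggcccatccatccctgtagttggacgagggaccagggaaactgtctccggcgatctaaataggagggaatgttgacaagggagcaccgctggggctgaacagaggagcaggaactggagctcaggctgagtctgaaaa

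Capza2: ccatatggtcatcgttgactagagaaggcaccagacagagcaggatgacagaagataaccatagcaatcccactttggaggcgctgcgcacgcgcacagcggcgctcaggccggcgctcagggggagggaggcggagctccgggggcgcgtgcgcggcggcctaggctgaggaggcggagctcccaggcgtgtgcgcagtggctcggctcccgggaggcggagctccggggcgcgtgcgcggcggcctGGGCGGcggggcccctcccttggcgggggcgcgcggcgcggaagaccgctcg

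Zdhhc21: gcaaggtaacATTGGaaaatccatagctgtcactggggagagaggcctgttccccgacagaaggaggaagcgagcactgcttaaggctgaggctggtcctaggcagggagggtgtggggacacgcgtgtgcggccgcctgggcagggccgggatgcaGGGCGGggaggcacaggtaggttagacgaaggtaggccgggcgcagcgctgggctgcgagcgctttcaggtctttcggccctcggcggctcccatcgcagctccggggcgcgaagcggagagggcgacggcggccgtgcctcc

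The regions were weak peaks of their own lists. The CTRL lists held 10835 and 14975 peaks, and peaks found in that list alone made up 13.6% and 34.4% of them. For the C26 lists, with 7482 and 4051 peaks, the shares were 7.55% and 8.02%. Fold enrichment over input and the q-value are the authors' values, scaled by library, and are ranked here within a list only. The fold of the members of CTRL replicate 1 ran from 2.84 to 11.7 with a median of 4.74, and in CTRL replicate 2 from 2.96 to 14.7 with a median of 4.90. The median region stood at percentile 17.8 of its list by −log10 q in CTRL replicate 1 and at percentile 22.5 in CTRL replicate 2, with 100 for the strongest peak. Peaks of the same lists that lay in regions of all 4 libraries had median percentiles of 83.6 and 88.4.

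The share of single-list peaks fell from the weak to the strong end of each list. With each list in 10 parts by −log10 q, 453 of 1080 peaks of the weakest part of CTRL replicate 1 (41.9%, 95% Wilson interval 39.0 to 44.9) were in that list only. For CTRL replicate 2 it was 1265 of 1491 (84.8%, 82.9 to 86.6). In part 5 the shares were 11.7% and 36.7%. In part 8 there were 5 of 1086 and 44 of 1500 peaks (0.460% and 2.93%). The upper 2 parts of CTRL replicate 1 held 0 single-list peaks of 1086 and 1083, and in CTRL replicate 2 they held 2 of 1498 and 0 of 1498. Every list was also reduced to its 4051 strongest peaks, the length of the shortest list, and merged anew. Then 374 regions of CTRL replicate 1 and 417 of CTRL replicate 2 were in a single list. They include regions whose peaks in other lists had been cut, so they are not a subset of the members. All intervals given here cover counting error only.

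**Figure D1:**
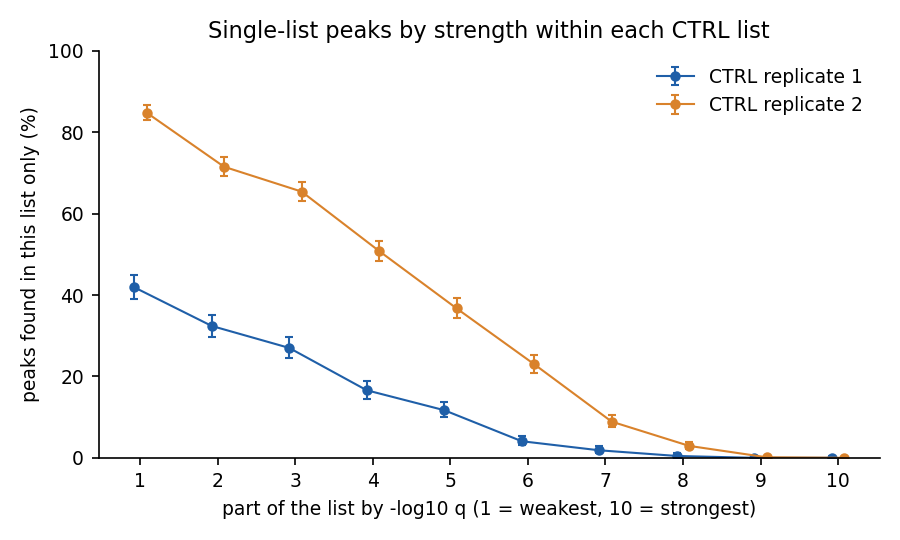
Share of the peaks of each CTRL list that were found in that list only (vertical axis, percent) in each of 10 parts of the list ordered by −log10 q (horizontal axis), with 95% Wilson intervals as bars. Both lines fall from left to right, and CTRL replicate 2 is the higher from 84.8% in the weakest part to 2.93% in part 8.

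The number of sequenced fragments behind each peak could be read back from the authors' values. MACS2, the peak caller, sets the fold to the fragments stacked at the summit plus 1 over the local background plus 1, and takes p from a Poisson distribution with that background. A whole number of stacked fragments gave the listed p to within 0.001 on the −log10 scale for 98.3% to 100% of the peaks of each list and for 100% of the 6626 regions. These pile-ups are therefore conditional on that formula, and they are on the scale of each library's own depth or of the depth to which the caller scaled it.

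Few fragments stood behind the regions. In CTRL replicate 1 the summit pile-up ran from 7 to 31 fragments with a median of 12, and in CTRL replicate 2 from 5 to 64 with a median of 8. Fewer than 10 fragments stood under 296 of 1475 regions in CTRL replicate 1 (20.1%, 18.1 to 22.2) and under 3423 of 5151 in CTRL replicate 2 (66.5%, 65.2 to 67.7). In regions of all 4 libraries the median pile-up was 41 fragments in CTRL replicate 1 and 34 in CTRL replicate 2, over the peaks where it could be read back.

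The background the caller set against these pile-ups differed between the lists. Its lowest value was 1.14 and 0.634 fragments in CTRL replicates 1 and 2, and 1.41 and 0.213 in the C26 pair. The smallest pile-up that passed was 7 and 5 fragments in the CTRL lists and 8 and 4 in the C26 lists. A pile-up of 5 or 6 fragments was thus listed in CTRL replicate 2, where it held for 947 regions of this set, and none of the peaks read back in CTRL replicate 1 or C26 replicate 1 had so few. How far these thresholds account for the different sizes of the 2 sets was not tested.

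**Figure D2:**
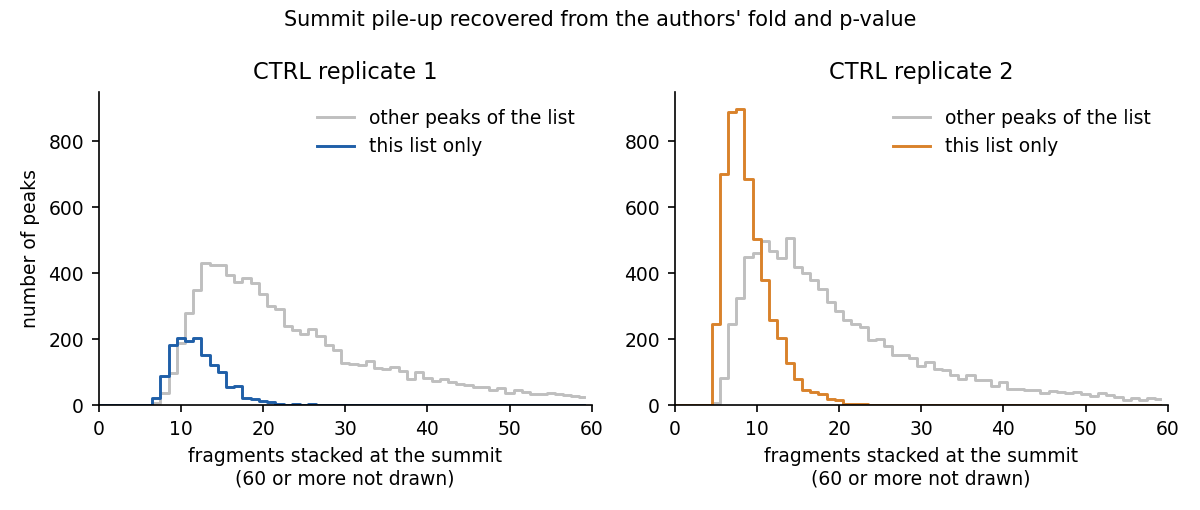
Number of peaks (vertical axis) by fragments stacked at the summit (horizontal axis) in CTRL replicate 1 (left) and CTRL replicate 2 (right), for regions in that list only (color) and for the other peaks of the list (gray). The single-list regions have medians of 12 and 8 fragments, and gray peaks reach far beyond them.

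Many regions had exactly the same values because they had the same small number of fragments over the same background. The 5151 regions of CTRL replicate 2 had 643 distinct pairs of fold and −log10 q. The most frequent pair, a fold of 4.28 and a −log10 q of 2.66, was shared by 267 regions, each with 6 fragments over a background of 0.634. The 1475 regions of CTRL replicate 1 had 458 distinct pairs, and the most frequent was shared by 41 regions with 10 fragments over 1.14. Ranks among such regions are tied.

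A peak in 1 CTRL library was seldom repeated in a C26 library. Of the 1730 regions with a peak in CTRL replicate 1 and none in CTRL replicate 2, 255 had a C26 peak (14.7%, 13.1 to 16.5). Of the 5949 with a peak in CTRL replicate 2 and none in CTRL replicate 1, 798 had one (13.4%, 12.6 to 14.3). Of the 8972 regions with peaks in both CTRL libraries, 6211 had one (69.2%, 68.3 to 70.2). The intervals of the first 2 shares overlap, and both lie far below the last.

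Most regions lay away from the peaks of other libraries. The edge of the nearest peak of another list was within 500 bp for 7.53% of the regions of CTRL replicate 1 (6.29 to 8.98) and 4.87% of those of CTRL replicate 2 (4.32 to 5.50). The median distance was 16407 and 17877 bp. The smallest gaps were 1 base, near 2310002L09Rik, for CTRL replicate 1 and 2 bases, near 2900026A02Rik, for CTRL replicate 2. At Tpm2, the β-tropomyosin gene, the peaks of CTRL replicate 1 (chr4:43523325-43523606) and CTRL replicate 2 (chr4:43523611-43524311) were 4 bases apart, and at Lrig3, where they were 5 bases apart. Just beyond the rule, near Ccr1, the 2 peaks shared 7 bases and made 1 region.

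Fewer of these regions lay at gene ends than of the regions shared between libraries. A gene-end region had its summit within 1000 bp of either end of 1 of 21887 protein-coding genes. This held for 347 of 1475 regions of CTRL replicate 1 (23.5%, 21.4 to 25.8) and 1573 of 5151 of CTRL replicate 2 (30.5%, 29.3 to 31.8). In regions of both CTRL libraries and no C26 library it held for 53.6% and 53.8% of the peaks of the 2 CTRL lists, and in regions of all 4 libraries for 75.9% and 76.5%. The regions of C26 replicate 1 only and C26 replicate 2 only had lower shares, 16.5% (13.6 to 19.7) and 8.62% (6.03 to 12.2). Position was not used by the rule, and none of the 95% intervals of the 2 sets and of the shared regions overlap.

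The rest lay mostly inside genes. Inside a protein-coding gene and farther than 1000 bp from its ends lay 47.3% of the regions of CTRL replicate 1 and 45.5% of those of CTRL replicate 2, and outside genes 29.2% and 24.0%. More than 50000 bp from any gene end lay 19.9% (17.9 to 22.0) and 12.8% (11.9 to 13.8), against 2.67% and 2.64% of the CTRL peaks in regions of all 4 libraries. In regions of both CTRL libraries and no C26 library the shares were 8.31% and 8.34%. Regions of C26 replicate 1 only and C26 replicate 2 only had higher ones, 24.8% and 23.7%. Members were spread over all chromosomes, from 34.1% of the merged regions of chromosome 5 to 43.1% of those of chromosome 18, with chromosome Y apart at 6 of 8.

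**Figure D3:**
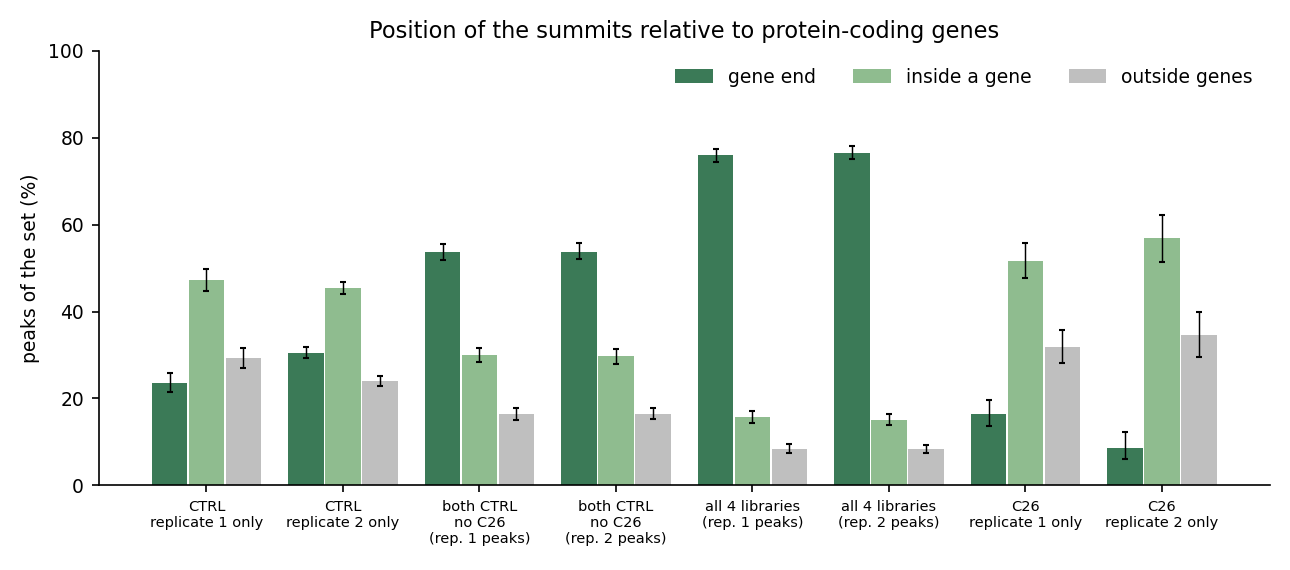
Share of peaks (vertical axis, percent) with the summit at a gene end, inside a gene or outside genes, for 8 sets of peaks along the horizontal axis, with 95% Wilson intervals. The gene-end bar rises from 23.5% and 30.5% in the single-list sets to 75.9% and 76.5% in regions of all 4 libraries, and is lowest in C26 replicate 2 only at 8.62%.

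The gap in gene-end shares to the regions of both CTRL libraries was also present between peaks of like strength. Among peaks at percentiles 25 to 50 of CTRL replicate 1, 117 of 449 single-list peaks were at a gene end (26.1%, 22.2 to 30.3), against 559 of 1065 peaks also called in the other CTRL library but in no C26 library (52.5%, 49.5 to 55.5). In CTRL replicate 2 the same bins held 35.7% (33.5 to 37.9) and 47.4% (44.3 to 50.6). Against peaks of all 4 libraries the order was not the same in the 2 lists. In CTRL replicate 1 the all-4 peaks of this bin were at gene ends in 51.3% (44.9 to 57.7), above the single-list peaks, while in CTRL replicate 2 they were at 26.4% (19.5 to 34.7, 33 of 125 peaks), with an interval that overlaps that of the single-list peaks. With the lists reduced to 4051 peaks and merged anew, 65.8% of the 374 and 76.7% of the 417 single-list regions lay at gene ends. Those include regions whose peaks in other lists had been cut, so they are not a subset of the members. At percentiles 50 to 75 of the full list of CTRL replicate 2 the single-list share was 48.7% (44.5 to 53.0) and the all-4 share 62.3% (58.0 to 66.3). In the same bin of CTRL replicate 1 they were 33.3% (23.4 to 45.1, 23 of 69 peaks) and 67.1% (63.5 to 70.5).

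Summits near start sites lay upstream of the start less often than in shared regions. A RefSeq start site lay within 1000 bp of the summit in 289 regions of CTRL replicate 1 (19.6%) and 1325 of CTRL replicate 2 (25.7%). The start sites used included none on chromosome 18, so the 62 and 172 regions there could not be counted, though they are in the totals. Of these, 52.9% (47.2 to 58.6) and 49.0% (46.3 to 51.7) had the summit upstream of the start. In regions of all 4 libraries 71.9% (69.9 to 73.7) and 73.1% did, and in regions of both CTRL libraries only 63.0% and 61.1%. The median distance from the start was 95 and 103 bp in the single-list regions and 74 and 72 bp in those of all 4. Summits within 1000 bp of the ends of 2 or more genes, as at divergent promoters, made up 9.80% (7.10 to 13.4) and 12.5% (11 to 14.3) of gene-end regions, against 23.1% and 23.3% in regions of all 4. In regions of both CTRL libraries only they made up 14.8% and 14.7% (13.0 to 16.6 each), with intervals that overlap those of the single-list regions.

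Promoters under these regions seldom held a CRE. Promoter windows of 17492 protein-coding genes were searched on both strands, 21263 windows in all, of which 2.23% held TGACGTCA. With a member summit within 1000 bp of the window, 3 of 364 windows in CTRL replicate 1 (0.824%, 0.281 to 2.39) and 13 of 1619 in CTRL replicate 2 (0.803%, 0.470 to 1.37) held it. With the summit inside the window the counts were 2 of 190 (1.05%) and 8 of 837 (0.956%). Windows with no summit of any list within 1000 bp held it in 0.756% (0.616 to 0.928). Windows with a summit of a region of all 4 libraries inside held it in 13.5% (12.1 to 15.1) and 13.7% (12.3 to 15.3). For regions of both CTRL libraries and no C26 library the shares were also low, 1.25% (0.743 to 2.08) and 1.45% (0.896 to 2.35). Their intervals overlap those of the single-list regions.

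The shorter core of the element, TGACG, which is part of every full CRE, was also most frequent under regions of all 4 libraries. It was present in 25.3% (19.6 to 31.9) of windows with a summit of CTRL replicate 1 only and in 20.1% (17.5 to 22.9) of those of CTRL replicate 2 only. All windows held it in 23.6% and windows without a summit nearby in 13.0%. Windows under regions of both CTRL libraries and no C26 library held it in 27.0% and 27.2%, and those under regions of all 4 in 69.4% and 71.0%. Where the core was present, the summit lay a median of 42.0 and 45.0 bp from it in the single-list regions and 16.0 and 17.0 bp in those of all 4. In regions of both CTRL libraries and no C26 library the medians were 39.0 and 38.5 bp, near those of the single-list regions.

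The shares were also set side by side for peaks of like strength. At percentiles 50 to 75 of CTRL replicate 2 the core was present in 43 of 197 windows under single-list peaks (21.8%, 16.6 to 28.1), in 26.7% (23.3 to 30.5) under peaks of both CTRL libraries only and in 42.8% (37.1 to 48.8) under peaks of all 4. At percentiles 25 to 50 of the same list the 3 shares were 20.0% (16.2 to 24.4), 21.4% (17.1 to 26.3) and 20.0% (8.07 to 41.6). The last rests on 4 of 20 windows, too few to compare with the others. The full CRE was in 0.508% and 1.11% of windows under single-list and all-4 peaks at percentiles 50 to 75, with overlapping intervals. In CTRL replicate 1, 18 windows under single-list peaks fell at percentiles 50 to 75, and 5 of them held the core (27.8%, 12.5 to 50.9), against 47.4% (42.4 to 52.4) under peaks of all 4. At percentiles 25 to 50 of that list the 3 shares, in the same order as above, were 30.7% (21.4 to 41.8), 26.4% and 30.9% (21.9 to 41.6). At percentiles 0 to 25 they were 20.6% (13.8 to 29.7), 19.4% and 6.25% (1.73 to 20.1), the last from 2 of 32 windows.

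Other promoter motifs differed in how close they came to the shares of the shared regions. The GC box GGGCGG, bound by Sp1 family factors, was present in 68.9% (62.0 to 75.1) and 70.8% (67.7 to 73.8) of windows under single-list regions, in 72.9% and 72.4% under regions of all 4 and in 27.3% of windows without a summit nearby. The CCAAT box, bound by NF-Y, was in 38.9% and 38.4%, close to the 37.2% of windows without a summit and below the 46.4% and 46.7% of regions of all 4. CCGGAAG, an ETS factor motif, was in 15.8% (11.3 to 21.6) and 21.4% (18.7 to 24.3), with 26.6% and 26.2% in all 4 and 4.07% without a summit. The NRF1 motif was in 2.11% and 2.39%, against 1.33% of all windows, 0.487% of those without a summit and 1.81% and 1.78% of those of all 4. The TATA motif TATAAA was in 7.89% and 6.69%, against 12.6% of all windows, 17.9% without a summit and 5.64% and 5.76% in all 4. Windows under regions of both CTRL libraries and no C26 library held the GC box in 76.6% (74.0 to 79.0) and 75.3% (72.7 to 77.8). They held the CCAAT box in 42.5% and 43.5% and CCGGAAG in 22.6% and 23.9%. The NRF1 motif was in 3.38% and 3.27% of them and TATAAA in 3.91% (2.93 to 5.21) and 4.17% (3.14 to 5.52). The median GC content of these windows was 61.7% and 62.3%, against 62.3% in regions of all 4 and 50.7% without a summit nearby. A match of letters is a description of the window and does not show which protein was bound.

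**Figure D4:**
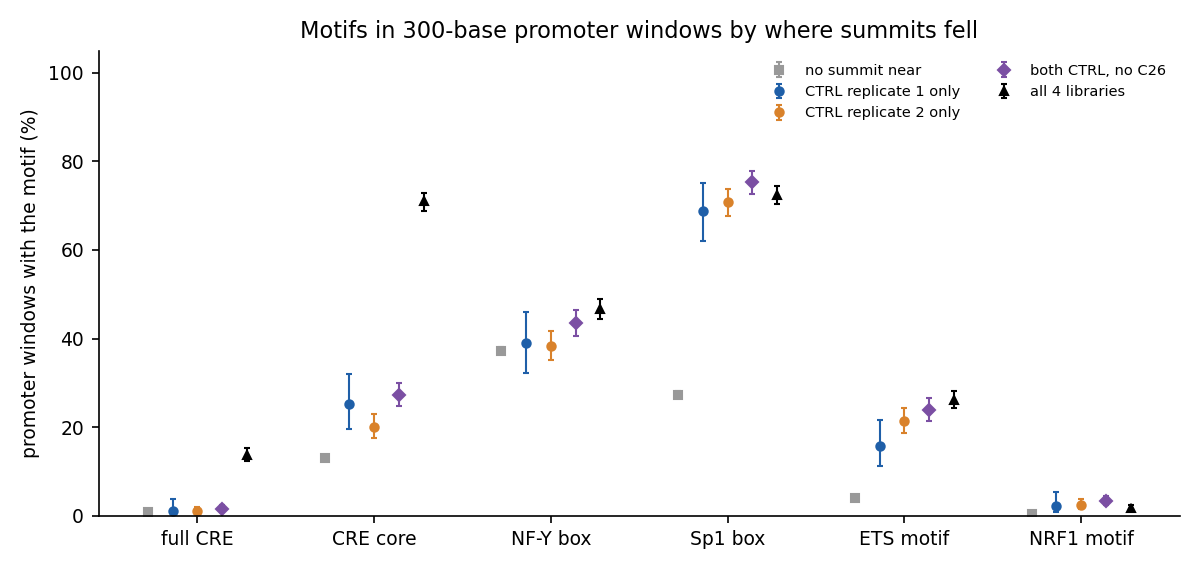
Share of promoter windows holding each of 6 motifs (vertical axis, percent, with 95% Wilson intervals) for windows without a summit within 1000 bp and for windows with a summit inside, by the set of regions the summit came from (CTRL replicate 2 peaks for the 2 shared sets). The CRE and its core, TGACG, stand high only in windows of all 4 libraries, at 13.7% and 71.0%, while the GC box (Sp1 box) is at 68.9% to 75.3% in all 4 sets with summits, which include the single-list ones.

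The strongest gene-end region of CTRL replicate 1 lay at Vps36, a subunit of the ESCRT-II complex that sorts proteins to lysosomes (chr8:22192572-22192935), with a fold of 11.2, 28 fragments over a background of 1.58, and its summit 37 bp upstream of the start. It ranked 2754 in its list, at percentile 74.6. The second, at 11.7-fold, lay 180 bp from an end of Sik2, a salt-inducible kinase of the CREB coactivator pathway, and inside the neighboring phosphatase gene Ppp2r1b (chr9:50889254-50889645). Hdac8, a class I histone deacetylase gene, followed with a fold of 10.3 and 21 fragments (chrX:102505173-102505544). The other 7 of the 10 strongest were at Arf3, Snw1, Rilpl2, Ahcy, Gm5165, Dpf2 and Ltb, with folds of 8.58 to 9.36 and 19 to 25 fragments. A gene end need not be a start, and the Sik2, Snw1 and Ltb summits lay 32540, 28365 and 1369 bp from the nearest start site. Ahcy encodes the enzyme that splits S-adenosylhomocysteine, Dpf2 a subunit of chromatin remodelers and Ltb lymphotoxin β. None of these 10 regions had a peak of another list closer than 3454 bp.

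Inside genes, the strongest regions of CTRL replicate 1 lay in Atp6v1b2, a subunit of the lysosomal proton pump (10.5-fold, 26 fragments), and in Cxcl9, an interferon-induced chemokine gene (10.8-fold, 24 fragments). Tnrc6b, Orai1, Ablim3 and Cap2 followed at 8.46- to 10.1-fold. The Tnrc6b summit lay 27 bp upstream of a RefSeq start site inside the gene's span, so that a region inside a gene can still sit at a promoter. Orai1 encodes the pore of store-operated calcium entry, and Tnrc6b a partner of Argonaute proteins. Outside genes, 1 of the 4 strongest lay 1070 bp from Id1, an inhibitor of myogenic differentiation (9.08-fold, 25 fragments), and the other 3 lay 215167 to 281388 bp from a gene end, with Gm826, Tbc1d1 and Lyplal1 as nearest genes.

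In CTRL replicate 2 the strongest gene-end region lay at Capza2, a subunit of the actin capping protein (chr6:17636636-17637379), with a fold of 14.7 and 23 fragments over 0.634, at percentile 80.7 of its list. Zdhhc21, a palmitoyltransferase gene, had nearly the same values, 14.6-fold and 23 fragments over 0.645 (chr4:82859433-82860006). The shared end of Echs1, an enzyme of mitochondrial fatty acid oxidation, and Paox, a polyamine oxidase, stood at 13.0-fold with 23 fragments (chr7:140116213-140116672). Sec11a of the signal peptidase, Msrb3, a methionine sulfoxide reductase, Rnf19b, Paxbp1, Ipo4 and Tm9sf1, and Polr2g, a subunit of RNA polymerase II, followed at 10.2- to 13.4-fold with 20 to 24 fragments. These 9 regions had backgrounds of 0.634 to 1.46 fragments. The Polr2g summit lay 3888 bp from the nearest start site.

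The last of the 10, at Lars2, the mitochondrial leucyl-tRNA synthetase gene, was unlike the others. Its peak (chr9:123461874-123462128, 255 bp wide) had 64 fragments, the most of any member, over a background of 14.8, also the highest, and a fold of only 4.11. Its summit lay 67712 bp from the nearest start site. Of the 4 members of CTRL replicate 2 with over 30 fragments, the other 3 lay on chromosome Y near Gm52481, with 34, 33 and 39 fragments over backgrounds of 3.72, 5.22 and 7.10. They were singled out after their values were seen. The median background of the set was 0.794 fragments, and all 4 regions stood above it.

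Inside genes, the strongest of CTRL replicate 2 lay in Csk, a kinase that restrains Src (12.0-fold, 20 fragments), with its summit 49 bp upstream of a start site inside the span. Gse1, Lhpp, Sgms1, Abhd18 and Srl followed at 11.1- to 11.9-fold with 18 to 20 fragments. Srl encodes sarcalumenin, a calcium-binding protein of the sarcoplasmic reticulum. The Sgms1 and Abhd18 summits also lay near start sites, 5 bp downstream and 86 bp upstream. Outside genes, the strongest lay nearest to Hdhd5, Foxn2, Xpo6 and Sesn3, at 11.4- to 12.5-fold. The Sesn3 region, 1173 bp upstream of the start of a stress-induced sestrin gene, had a CTRL replicate 1 peak 393 bases away.

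Some genes held several members along their length. Pde4d, which encodes a cAMP-degrading phosphodiesterase of the class that rolipram inhibits, held most in CTRL replicate 1, with 6 regions of 3.38- to 8.42-fold, and 4 of CTRL replicate 2. Its span is 1301793 bp and held 23 merged regions in all, of which 4 were present in all 4 libraries. Over all merged regions, 8.38% were in CTRL replicate 1 only and 29.3% in CTRL replicate 2 only. Zbtb20, a zinc finger repressor gene, held 4 regions of CTRL replicate 1, and Auts2, Ext2, Foxp1 and Msi2 held 3 each. Foxp1 and Msi2 also held 2 and 5 of CTRL replicate 2.

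In CTRL replicate 2 the members per gene were more numerous. Gse1, a coregulator gene, held 14 regions in 352883 bp, Nfix, a nuclear factor of muscle development, 12 in 96527 bp, and Trak1, an adaptor of mitochondrial transport, 11 in 177418 bp. Nfix had 16 merged regions in all, 12 of them members, and 1 was present in all 4 libraries. Trak1 had 14, of which 11 were members and 0 were in all 4. Nfix and Trak1 held 0 regions of CTRL replicate 1 only, and Gse1 held 1. Mical3, Ccdc88c and Agap1 held 8, 7 and 6. The folds of the members in these 6 genes ran from 3.37 to 11.9. Over all merged regions, 29.3% were in CTRL replicate 2 only, and these genes were picked because they held the most members. A long or often occupied gene can hold more members of any set, and the number of members per gene was not tested.

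Few genes had regions of both sets, about as many as the share over all genes gives. Of the 21887 protein-coding genes, 382 (1.75%) had a region of CTRL replicate 1 only at an end and 1702 (7.78%) one of CTRL replicate 2 only, and 2060 (9.41%) had either. Both kinds were present at 24 genes, which is 6.28% of the 382 and 1.41% of the 1702, near the 7.78% and 1.75% of all genes. For comparison, 12.8% of genes had a gene-end region of all 4 libraries. At 296 of the 382 genes and 1364 of the 1702, all gene-end peaks of any list were regions of these 2 single-list sets. At Tpm2, Lrig3, Cnksr1 and Usp10 the 2 peaks lay 4, 5, 9 and 68 bases apart, while at Lamb2, Sema6c, Lca5l and Znrf1 they lay more than 10000 bases apart, at different parts of the gene.

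Among gene groups, the contractile genes of the muscle fiber had the highest share of the 22 lists with a region of CTRL replicate 2 only, 11 of 36 (30.6%, 18 to 46.9), against 7.78% of all genes. Its interval overlaps those of several other lists, and lists this short place few genes. Pvalb, the calcium buffer of fast fibers, had 8.17-fold with 13 fragments. Tpm2 had 6.69-fold, the calcium release channel gene Ryr1 6.88-fold, skeletal α-actin Acta1 6.49-fold, α-actinin 2 Actn2 5.90-fold and the fast myosin heavy chain Myh4 5.51-fold, with 8 to 13 fragments each. In CTRL replicate 1 only Tpm2 of this list had a region, at 4.14-fold with 12 fragments. For 5 of the 36 genes the single-list regions were the only gene-end regions, 14 had no gene-end peak in any list, and 2 had one in all 4 libraries.

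Regulators of muscle cell identity were present in both sets. Of 21 myogenic regulators, 3 had a region of CTRL replicate 1 only (14.3%, 4.98 to 34.6), against 1.75% of all genes. A region of CTRL replicate 2 only was present at 5 (23.8%, 10.6 to 45.1), against 7.78% of all genes. Those of CTRL replicate 1 were the homeobox gene Six4 (6.09-fold, 17 fragments), the cofactor gene Vgll2 (5.43-fold, 11 fragments) and Myf6, which encodes MRF4 (4.06-fold, 11 fragments). Those of CTRL replicate 2 included Myod1, the master regulator of myogenesis (6.54-fold, 11 fragments), and the satellite cell cadherin gene Cdh15, Tead4 and Mef2d, at 3.55- to 5.51-fold for the last 3. No gene was in both groups. Myod1 and Mef2d also had other gene-end peaks.

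For genes of the CREB1 pathway the shares over all genes, 1.75% in CTRL replicate 1 and 7.78% in CTRL replicate 2, lay inside the intervals. Of 36 known CREB1 target genes, 0 had a region of CTRL replicate 1 only (a share of up to 9.64%, the upper Wilson bound) and 5 one of CTRL replicate 2 only (13.9%, 6.08 to 28.7), while 18 had a gene-end region of all 4 libraries. The 5 were the neuropeptide precursor Vgf (6.12-fold, 9 fragments), the stress gene Gadd45b, the immediate early gene Ier2, the clock gene Per2 and Ppargc1a, which encodes the coactivator PGC-1α (3.91-fold, 7 fragments). Gadd45b, Ier2 and Per2 had other gene-end peaks as well. Of 45 genes of cAMP and CREB signaling, 0 and 4 had such regions (8.89%, 3.51 to 20.7). These 4 were Pkig, an inhibitor of protein kinase A (9.18-fold, 14 fragments), the phosphodiesterase gene Pde4a, the CREB coactivator gene Crtc3 and the β1-adrenergic receptor gene Adrb1 (3.44-fold, 5 fragments), the last at percentile 0.531 of its list.

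Mitochondrial genes had more regions of CTRL replicate 2 than of CTRL replicate 1, as did all genes (7.78% and 1.75%). Of 27 genes of mitochondrial biogenesis, 0 and 5 had a member at an end (18.5%, 8.18 to 36.7). Beside Ppargc1a they were the deacetylase gene Sirt3, whose region at the end shared with the proteasome gene Psmd13 had 10.2-fold and 22 fragments, the mitochondrial RNA polymerase Polrmt, the mitochondrial transcription factor Tfam (5.33-fold, 11 fragments) and Esrrb. Of 33 genes of the TCA cycle and fatty acid oxidation, 0 and 5 had one (15.2%, 6.65 to 30.9), among them Echs1, the succinate dehydrogenase subunit Sdha, the muscle carnitine transferase Cpt1b and Dlst. OXPHOS subunits had 2 and 5 of 88 (2.27% and 5.68%), with Cyc1 at 9.18-fold and 14 fragments the strongest. Mitochondrial ribosomal proteins had 3 and 8 of 78 (3.85% and 10.3%) and cytosolic ribosomal proteins 2 and 2 of 81. In the last list 37 genes had a region of all 4 libraries. Of 34 genes of muscle atrophy and autophagy, 0 and 1 had a member, at Cebpb.

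Among other families, 7 of 39 Hox genes had a region of CTRL replicate 2 only (17.9%, 8.98 to 32.7) and 0 one of CTRL replicate 1 only. At all 7 the single-list regions were the only gene-end regions, and the strongest were at Hoxd8 (7.34-fold, 11 fragments) and Hoxa10 (5.85-fold, 9 fragments). Zfp zinc finger genes had 7 and 42 of 367 (1.91% and 11.4%, 8.58 to 15.1), led by Zfp626 in CTRL replicate 1 and Zfp35 and Zfp128 in CTRL replicate 2. Sox and Fox factors had 0 and 6 of 63 (9.52% in CTRL replicate 2), collagen chains 0 and 3 of 44 (6.82%), and potassium channels 3 and 7 of 92 (7.61%), all near the 7.78% of all genes. The last list included Kcnj2, the inward rectifier of the muscle membrane (7.65-fold, 15 fragments). Olfactory receptors had 0 of 1106 in both sets, with an upper Wilson bound of 0.346%.

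Markers of other cell types in muscle also had regions at their ends, in lists of 8 to 20 genes, against 1.75% and 7.78% of all genes. Endothelial markers had 0 and 3 of 18 (16.7% in CTRL replicate 2, 5.84 to 39.2), at Flt1 (7.34-fold, 11 fragments), Plvap (5.02-fold, 8 fragments) and the VEGF receptor 2 gene Kdr (4.36-fold, 7 fragments). Fibroblast and fibro-adipogenic markers had 0 and 2 of 19 (10.5%, 2.94 to 31.4), at Fn1 (6.54-fold) and Col1a1 (4.89-fold). Smooth muscle and pericyte markers had 2 and 2 of 12 (16.7% each, 4.70 to 44.8), at Myl9 and Lmod1 in CTRL replicate 1 and Lmod1 and Abcc9 in CTRL replicate 2. Leukocyte markers had 0 and 1 of 20 (5.00%), at Fcgr3 with 5 fragments, and adipocyte and Schwann cell markers 0 and 0 of 8 each. None of these 6 lists had a gene-end region of all 4 libraries. The part of other cell types in the sets was not tested.

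**Figure D5:**
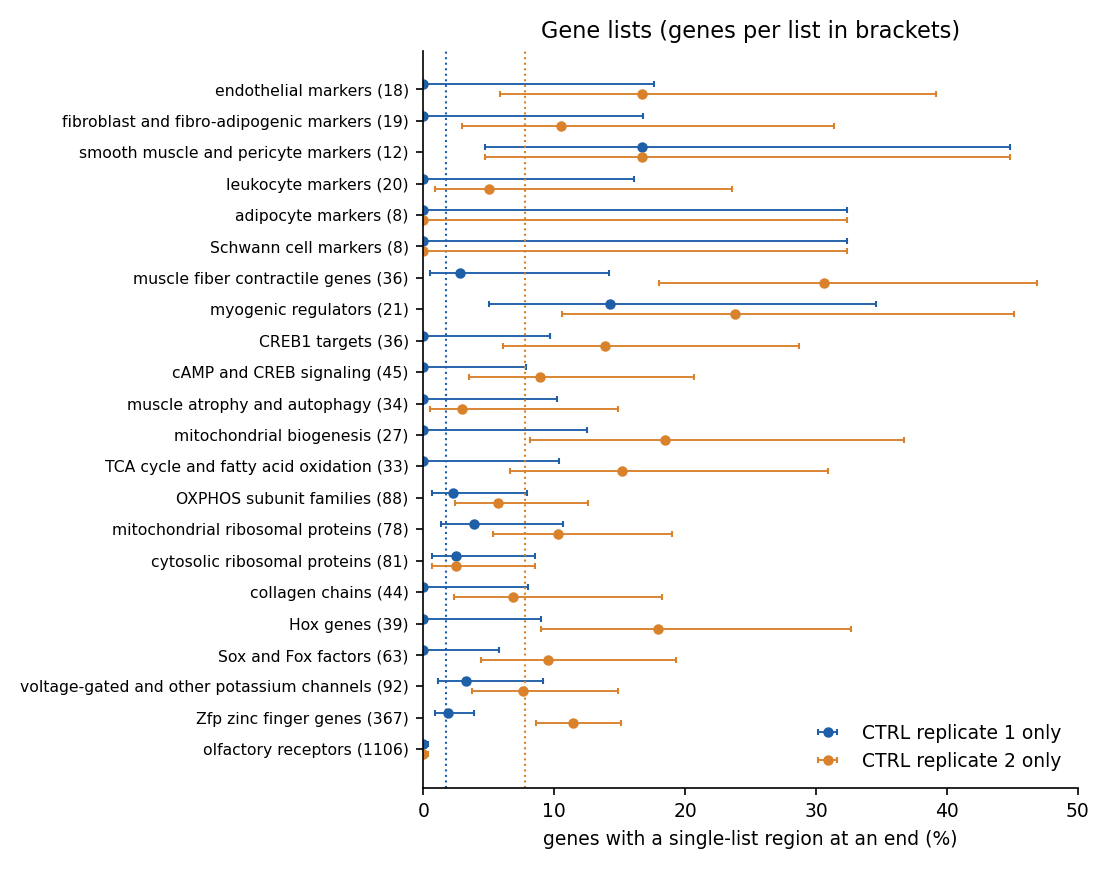
Share of the genes of each of 22 lists (vertical axis) with a gene-end region in CTRL replicate 1 only or CTRL replicate 2 only (horizontal axis, percent, with 95% Wilson intervals), beside the share of all protein-coding genes as dotted lines at 1.75% and 7.78%. The muscle fiber contractile genes reach 30.6% in CTRL replicate 2, and most intervals of the short lists include the dotted line.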

How the data were processed

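Phospho-CREB1 ChIP-seq peak lists of 4 libraries were analysed, 2 CTRL and 2 C26, from a series of 8 samples that also holds 4 inputs. The tools include Bowtie2 2.3.5.1 and MACS2 2.1.4, on mm10 (GRCm38), per the submitters' processing notes, which also name SAMtools 1.6 and Picard. Per the labels' descriptions, peaks were called for each library against its own input at a q-value threshold of 0.05. A further filter named in the lists is not given in the sources used here. The deposited lists give a fold enrichment over background (a ratio), a −log10 p-value, a −log10 q-value and a summit for each peak. The deposited score column is 10 times the −log10 q, truncated, as the authors' caller wrote it, and was not used.

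Each peak's whole-number pile-up and its background were solved from the deposited fold and −log10 p under the formula of MACS2, within 0.001, and this step was tested on simulated data. Total reads per library were not analysed here, so pile-up is the only measure of depth. Gene spans and promoter windows came from RefSeq (GRCm38.p6), and spans carry no strand. Regions were named by −log10 q within their list, as the 10 strongest at gene ends, 6 inside and 4 outside genes per library, with at most 6 genes per list. Some genes counted in the lists are not reported here by name. The regions, lists and rules were chosen with earlier results of these data known. Shares carry 95% Wilson intervals. No test was run, and samples were grouped by their labels. Alternatives covered the overlap, the threshold, list length, windows, gene types and leaving out each library. Python 3.11.15, numpy 2.4.6, pandas 2.3.3 and scipy 1.17.1 were used.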

Additional observations from a re-analysis of the deposited data

How the results depend on the processing

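No paired analysis was possible because the values come from no test. Limits of the data are the pile-ups, with medians of 12 and 8 fragments, and 1 library per value. Without 1 of the other 3 libraries in turn, regions of CTRL replicate 1 only numbered 1520 to 4236 and those of CTRL replicate 2 only 5305 to 7912. Their gene-end shares were 23.5% to 43.2% and 30.4% to 38.7%, and the high values came from leaving out CTRL replicate 2 and CTRL replicate 1. CRE shares of promoters were 0.811% to 1.23% and 0.698% to 0.956%.

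With each list reduced to 4051 peaks and merged anew, 374 and 417 regions were in a single CTRL list. Their gene-end shares were 65.8% and 76.7%, and the CRE was in 7 of 304 and 0 of 365 promoter windows. Many of them had a peak in another full list, so these values do not describe a subset of the members. A minimum of 10 fragments, chosen after seeing the data, left 1728 regions of CTRL replicate 2, with 43.1% at gene ends. A −log10 q of at least 2 gave 32.2% for CTRL replicate 2. Gene-end shares were 19.0% and 23.6% for a window of 500 bp, 29.2% and 38.3% for 2000 bp, 30% and 36.1% with genes of every type, and 19.6% and 25.7% with start sites alone, also chosen after seeing the data. The start sites used included none on chromosome 18. The core TGACG in place of the full CRE gave 25% and 20.4%. In all, 23 of these values moved and 35 stayed within 1.5 times a count or within the interval of a share. The cause was not tested, except that windows, gene types and a shorter motif change the share by construction.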
